A study of Homo sapiens with 24 samples.

Results

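The mitotic G2/M genes are 47 genes whose products carry a cell from the end of DNA replication through chromosome segregation and cytokinesis. Their expression was followed in T-47D cells, a luminal breast cancer line, treated with heregulin (HRG) and depleted of P-Rex1, an exchange factor that activates the GTPase Rac. The genes were taken as a list of symbols, and a gene was measured where a probe set of the array carried its symbol alone. This held for 46 of 47 genes, out of 18374 genes with such a probe set, each read from 1 of the 28536 probe sets of the Affymetrix Human Gene 1.0 ST array. CENPA, the centromeric histone, had only a probe set that also carries SLC35F6, and its level is not given. Expression values are log2 values on the RMA scale, so that a difference of -1 is a 2-fold lower level. Levels of the mitotic genes are compared for 1 probe set between arrays and not between probe sets. Only cell type markers are set against the array median.

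The 24 arrays formed 8 groups of 3 biological replicates. Cells transfected with P-Rex1 RNAi duplex #1, with P-Rex1 RNAi duplex #2 or with a non-target control duplex (NTC), and parental cells without a duplex, were starved of serum and then given HRG (20 ng/ml) or its vehicle, PBS. RNA was collected 6 h later. The depletion was transient and came from 2 separate duplexes against PREX1, and RNA was taken from whole cultures of a single cell line. Cells of NTC and parental cultures are called control cells below. Replicates were not stated to share a culture across groups. The limma p-values rest on the spread between the 3 arrays within each group, pooled over all 8 groups.

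Mitotic genes are switched on late in the cell cycle. In quiescent and G1 cells the DREAM complex, built from MuvB, E2F4 and a pocket protein, holds them silent through a promoter element called the CHR. In S and G2 phase MuvB joins B-Myb and FOXM1, and the same promoters are activated together with the CCAAT-binding factor NF-Y. In breast tumors these genes make up much of the proliferation signature by which luminal tumors are graded.

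PREX1 itself had the level that the labels imply. Without HRG its log2 level was lower by 1.52 in P-Rex1 RNAi cells than in control cells (log2 difference -1.52, standard error 0.05), and with HRG the difference was -0.87 (standard error 0.05). HRG also lowered PREX1 in control cells, by a log2 difference of -1.05 in parental and -0.97 in NTC cells (standard error 0.07 each), so the depleted and control cells differed less in PREX1 after HRG. DUSP6, an early ERK target, had an HRG effect of 2.51 to 3.06 in the 4 kinds of cells. All 10 luminal marker genes lay above the array median on every array, while 4 of 4 leukocyte, 4 of 4 endothelial and 4 of 5 fibroblast markers lay below it on every array. The mean of the luminal list was 11.03 to 11.23 on HRG arrays and 11.23 to 11.32 on vehicle arrays, and its relation to the mitotic genes was not tested. Array medians lay between 6.04 and 6.18. On the second principal component, which held 10.9% of the variance, 4 arrays stood apart (P-Rex1 RNAi #1 vehicle 2, P-Rex1 RNAi #2 HRG 3, NTC HRG 3 and parental vehicle 3), and counts are given with and without them.

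The first comparison asked what HRG did to these genes in control cells. After 6 h of HRG the mitotic genes were lower as a group, with a median log2 difference of -0.37 in parental and -0.50 in NTC cells, against -0.03 and 0.03 over all 21042 probe sets tested. At an adjusted p under 0.05 (limma, Benjamini-Hochberg over all probe sets), 39 of 46 genes fell in parental cells and 41 of 46 in NTC cells. Over all probe sets, 17.3% fell in parental and 17.6% in NTC cells at this threshold. No mitotic gene rose in either kind of cell, where 13.5% and 13.6% of all probe sets did. Most of the decreases were below 1.5-fold. With that fold required as well, 6 genes fell in parental cells and 16 in NTC cells, against 2.41% and 3.37% of all probe sets. In whole cultures, fewer cells in the mitotic phases and less mitotic RNA per cell cannot be told apart.

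Single arrays weighed on the counts that require 1.5-fold. Without HRG replicate 3 of the parental cells, 1 gene fell 1.5-fold in parental cells, and without HRG replicate 3 of the NTC cells, 10 genes did in NTC cells. Without the 4 arrays that stood apart, 8 genes fell 1.5-fold in parental and 10 in NTC cells. At the adjusted p alone, 44 and 39 genes fell without these arrays.

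**Figure D1:**
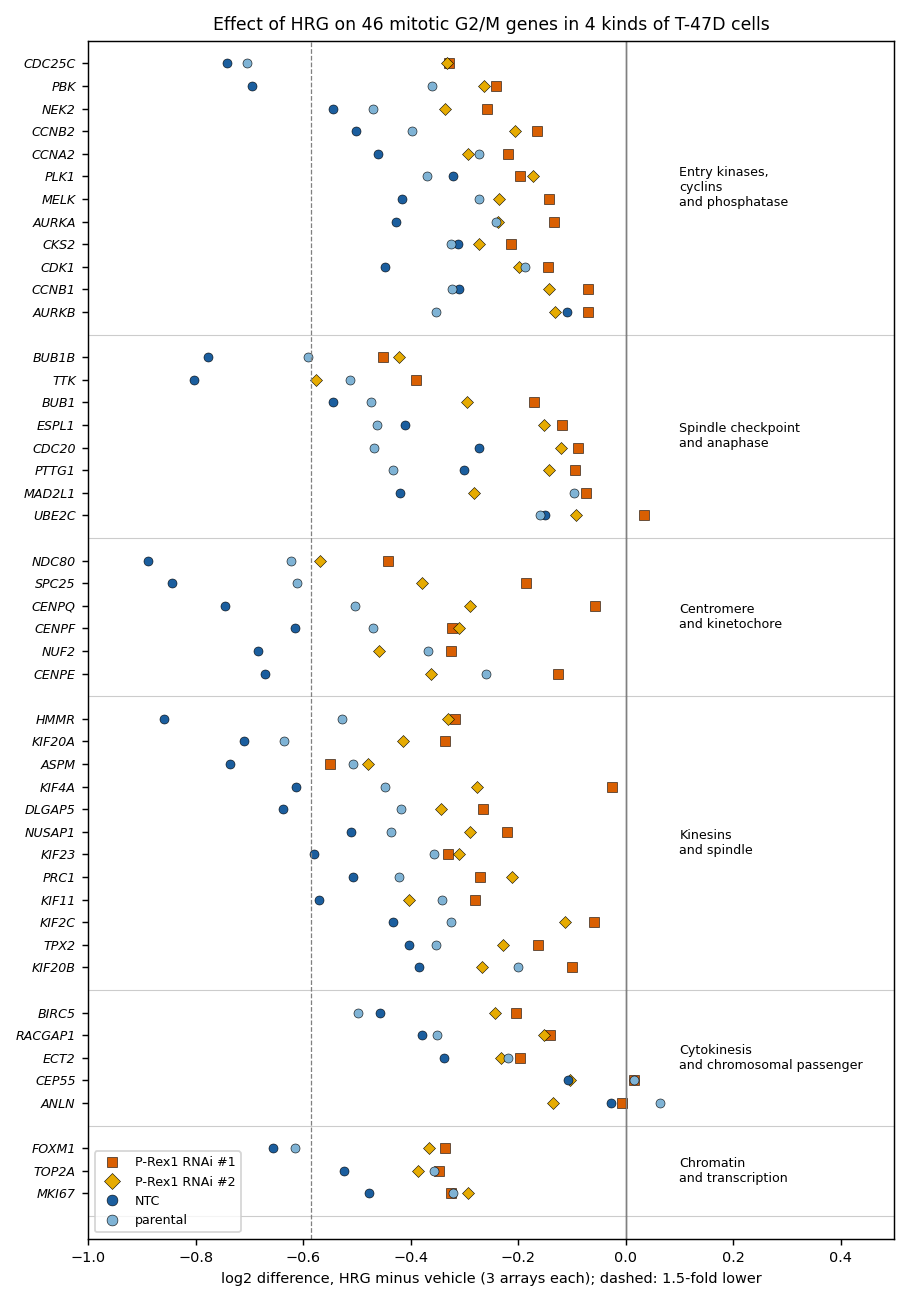
Log2 difference between HRG and vehicle arrays (x axis) for each of 46 mitotic genes (rows, grouped by role), with squares for P-Rex1 RNAi #1, diamonds for P-Rex1 RNAi #2, dark circles for NTC and light circles for parental cells, each from 3 arrays against 3. Nearly all points lie left of 0, with medians of -0.20, -0.28, -0.50 and -0.37 in the order of the legend.

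Of the 12 kinases, cyclins and other genes of mitotic entry, 11 fell in parental and 11 in NTC cells, with medians of -0.34 and -0.44. CDC25C, the phosphatase that removes the inhibitory phosphates from CDK1, fell most. Its log2 level was 7.30, 7.29 and 7.03 on the HRG arrays of parental cells, against 8.004, 8.01 and 7.73 on their vehicle arrays. In NTC cells it was 7.27, 7.499 and 7.002 with HRG, against 7.97, 8.07 and 7.96 with vehicle. Every HRG array of control cells was thus below every vehicle array. The decrease was 1.63-fold in parental cells (log2 difference -0.71, standard error 0.10, adjusted p = 8.77e-06, limma) and 1.67-fold in NTC cells (-0.74, standard error 0.10, adjusted p = 4.16e-06). AURKB, the kinase of the chromosomal passenger complex, moved least on average. Its levels were 8.40, 8.39 and 8.28 with HRG, against 8.74, 8.62 and 8.78 with vehicle in parental cells, a called difference of -0.35. In NTC cells they were 8.51, 8.60 and 8.59, against 8.62, 8.67 and 8.73, a difference of -0.11 that did not pass (adjusted p = 0.196). CDK1, the kinase that drives mitotic entry, showed the opposite balance, with -0.19 in parental cells (not called) and -0.45 in NTC cells (called). The difference between the effects in NTC and parental cells, tested as an interaction, passed for neither AURKB nor CDK1. The partner cyclins of CDK1, CCNB1 and CCNB2, fell in both, by -0.32 and -0.40 in parental cells and by -0.31 and -0.50 in NTC cells on the log2 scale.

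Of 8 genes of the spindle checkpoint and anaphase, 6 fell in parental and 6 in NTC cells. BUB1B, which holds back the anaphase-promoting complex until chromosomes are attached, had log2 levels of 9.34, 9.28 and 9.02 with HRG, against 9.84, 9.79 and 9.78 with vehicle in parental cells. In NTC cells the levels were 9.36, 9.23 and 8.90 with HRG, against 9.95, 9.90 and 9.97 with vehicle. The groups did not overlap, and the differences were -0.59 and -0.78 (standard error 0.09 each). TTK, the checkpoint kinase MPS1, had -0.51 in parental and -0.80 in NTC cells. UBE2C, the ubiquitin-conjugating enzyme of the anaphase-promoting complex, was the least changed, with 8.78, 8.69 and 8.65 with HRG, against 8.96, 8.91 and 8.73 with vehicle in parental cells. Its levels in NTC cells were 8.86, 8.90 and 8.59 with HRG, against 8.97, 8.94 and 8.90 with vehicle, and neither difference passed (-0.16 and -0.15, adjusted p = 0.109 and 0.134). PTTG1, securin, fell by -0.43 and -0.30, but its probe set can share signal with near-identical copies of the gene. ESPL1, the separase that securin inhibits, fell by -0.46 and -0.41.

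Of the 6 role groups the kinetochore genes had the lowest medians, -0.49 in parental and -0.72 in NTC cells, and in NTC cells all 6 fell over 1.5-fold. NDC80, NUF2 and SPC25 encode subunits of the complex that binds kinetochores to spindle microtubules. NDC80 had 8.002, 8.07 and 7.71 with HRG, against 8.64, 8.61 and 8.40 with vehicle in parental cells, and 7.94, 8.05 and 7.62 with HRG, against 8.75, 8.77 and 8.76 with vehicle in NTC cells. This was the lowest value of all 46 genes in NTC cells, 1.85-fold lower (log2 difference -0.89, standard error 0.12, adjusted p = 6.88e-06), with 1.54-fold in parental cells (-0.62, adjusted p = 0.000446). SPC25 had 7.71, 7.63 and 7.51 with HRG, against 8.24, 8.37 and 8.08 with vehicle in parental cells, and 7.57, 7.63 and 7.60 with HRG, against 8.42, 8.50 and 8.41 with vehicle in NTC cells. Neither NDC80 nor SPC25 overlapped between treatments. CENPE, a kinesin of the kinetochore, was called in NTC and not in parental cells. Its levels were 7.85, 7.91 and 7.54 with HRG, against 7.99, 8.21 and 7.89 with vehicle in parental cells, where the arrays overlapped and the difference of -0.26 did not pass (adjusted p = 0.14). In NTC cells they were 7.82, 7.84 and 7.28, against 8.39, 8.31 and 8.26, without overlap and with a difference of -0.67 (adjusted p = 0.00025). The difference between these effects, tested as an interaction, did not pass (-0.41, standard error 0.18, adjusted p = 0.603).

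Among 12 kinesins and spindle proteins, 11 fell in parental and 12 in NTC cells. KIF20A, a kinesin of the central spindle needed for cytokinesis, had 9.81, 9.48 and 9.13 with HRG, against 10.16, 10.10 and 10.07 with vehicle in parental cells, and 9.77, 9.58 and 9.30 with HRG, against 10.29, 10.24 and 10.24 with vehicle in NTC cells. Its HRG arrays spread more than its vehicle arrays, without overlap. HMMR, a microtubule-binding protein of the spindle, had 8.79, 8.75 and 8.25 with HRG, against 9.19, 9.17 and 9.01 with vehicle in parental cells, and 8.60, 8.58 and 8.23 with HRG, against 9.36, 9.37 and 9.26 with vehicle in NTC cells (-0.53 and -0.86). KIF20B, a kinesin related to KIF20A, was at the other end. Its levels were 9.08, 9.16 and 8.72 with HRG, against 9.36, 9.27 and 8.93 with vehicle in parental cells, and 9.20, 9.17 and 8.67 with HRG, against 9.41, 9.45 and 9.34 with vehicle in NTC cells. The arrays overlapped when both kinds of control cells were pooled, and the call in NTC cells was at the threshold (-0.39, adjusted p = 0.0498) and was lost when single arrays were left out, most clearly NTC HRG replicate 3 (-0.21, adjusted p = 0.339).

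Of 5 cytokinesis genes, 3 fell in parental and 3 in NTC cells. BIRC5 (survivin), a subunit of the chromosomal passenger complex, had 7.92, 7.89 and 7.84 with HRG, against 8.40, 8.31 and 8.43 with vehicle in parental cells, and 7.99, 8.11 and 7.89 with HRG, against 8.54, 8.45 and 8.37 with vehicle in NTC cells, a difference of -0.50 and -0.46. A dimmer BIRC5 probe set, with a mean log2 level of 4.54, differed by -0.06 and -0.10. RACGAP1 and ECT2, which act in cytokinesis, fell by -0.35 and -0.22 in parental cells and by -0.38 and -0.34 in NTC cells. ANLN and CEP55 are named because they were the 2 genes nearest to 0, a choice made after their values were seen. ANLN, the anillin scaffold of the contractile ring, had 11.22, 11.23 and 11.10 with HRG, against 11.26, 11.15 and 10.95 with vehicle in parental cells, and 11.27, 11.30 and 11.04 with HRG, against 11.27, 11.24 and 11.18 with vehicle in NTC cells. CEP55, which recruits the abscission machinery to the midbody, had 10.21, 10.20 and 10.12 with HRG, against 10.19, 10.12 and 10.17 with vehicle in parental cells, and 10.27, 10.22 and 10.21 with HRG, against 10.32, 10.33 and 10.37 with vehicle in NTC cells. The arrays of these genes overlapped between treatments, except those of CEP55 in NTC cells, and the differences lay between -0.11 and 0.06 with none called.

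All 3 genes of chromatin and transcription fell in both kinds of control cells. FOXM1, the transcription factor that activates many of the other genes on the list, had 9.23, 9.27 and 9.06 with HRG, against 9.84, 9.82 and 9.75 with vehicle in parental cells, and 9.34, 9.30 and 9.18 with HRG, against 9.95, 9.97 and 9.86 with vehicle in NTC cells. It was 1.53-fold and 1.58-fold lower (-0.62 and -0.66, standard error 0.07 each), with less spread between arrays than CDC25C or KIF20A. TOP2A, the topoisomerase that untangles sister chromatids, fell by -0.36 and -0.52, and the proliferation marker MKI67 by -0.32 and -0.48.

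**Figure D2:**
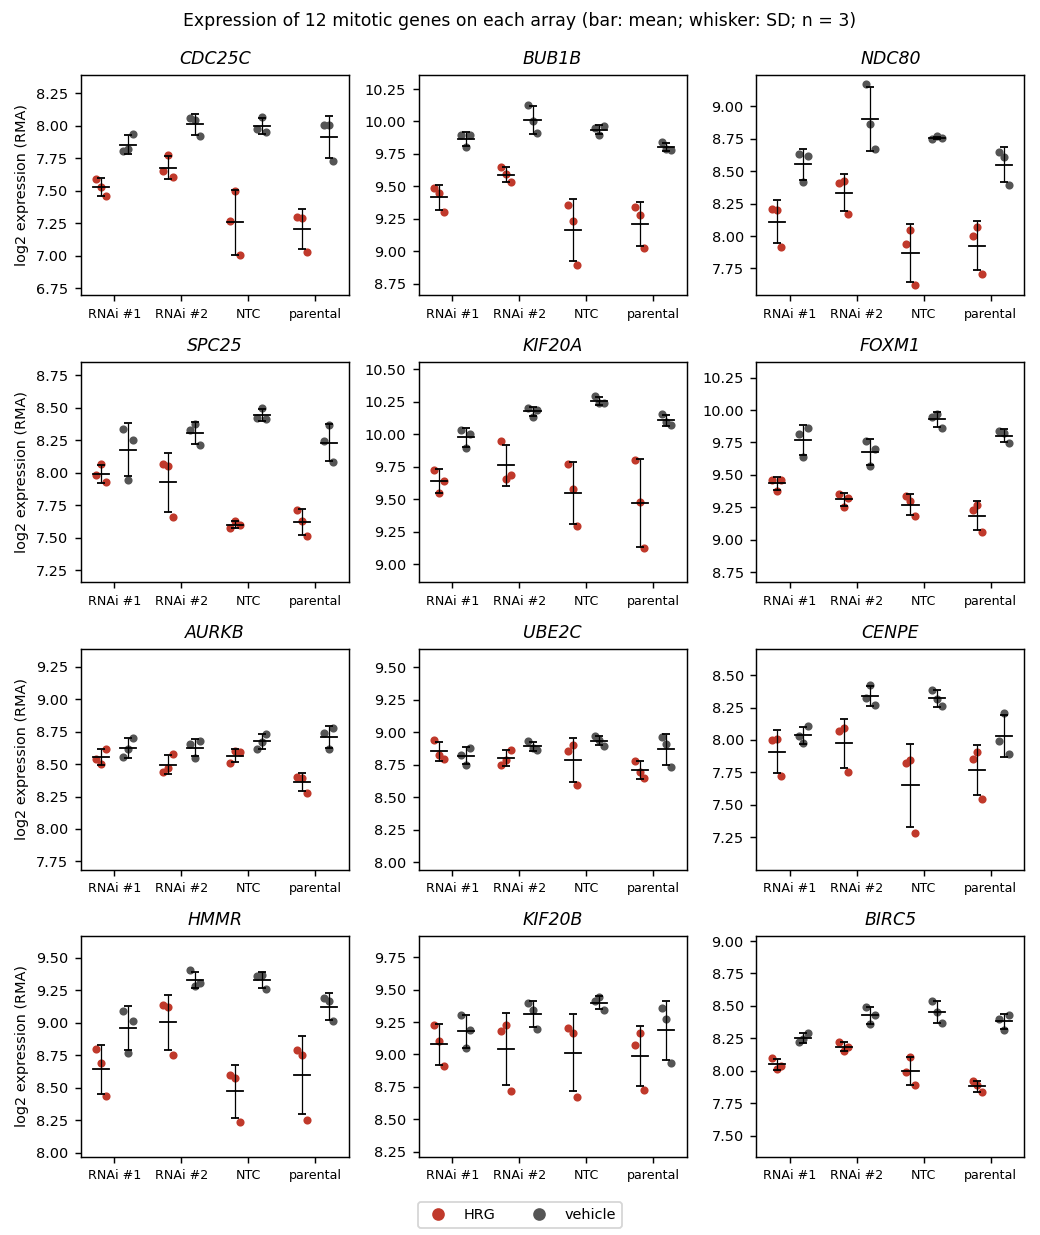
Log2 expression on each array for 12 mitotic genes (1 panel each, y axes of equal span), with HRG arrays in red left of vehicle arrays in grey for P-Rex1 RNAi #1, P-Rex1 RNAi #2, NTC and parental cells. In the panels of CDC25C, BUB1B, NDC80, SPC25, KIF20A, FOXM1, AURKB, HMMR and BIRC5 the 6 HRG arrays of control cells lie below the 6 vehicle arrays.

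The 6 HRG arrays of control cells were all below the 6 vehicle arrays for 38 of 46 genes, against 14.4% of all probe sets, and no gene showed the reverse. The 8 exceptions were CDK1, MAD2L1, UBE2C, CENPE, KIF11, KIF20B, ANLN and CEP55. The sizes of the HRG effects in NTC and parental cells, which share no arrays, had a Pearson r of 0.73 and a Spearman correlation of 0.70 across the 46 genes, which are not independent replicates. Within groups, after the group means were removed, the 46 genes moved together from array to array, with a median pairwise r of 0.57 over 24 arrays, against 0.46 for 29 genes of DNA replication and S-phase entry and 0.09 for 17 genes of the anaphase-promoting complex. No value over all probe sets is set beside these. In each HRG group the array of replicate 3 had the lowest mean of the 46 genes, and the source of the shared movement was not tested. KIF20B and TPX2 followed the other genes most closely (median r = 0.76 and 0.74), and AURKB did not (-0.17).

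The promoters of the mitotic genes were then examined for the elements named above. RefSeq windows of 300 bases, 250 of them before the start of transcription, were at hand for 38 of the 46 genes (GRCh38.p14). The letters TTTGAA, the core of the CHR, occurred on either strand in a window of 27 of 38 genes (71.1%), against 18.2% of 27305 genes with such windows. CCAAT, the NF-Y box, occurred in 31 of 38 (81.6%), against 39.7%. Both stood in the same window in 23 genes (60.5%), against 7.26%, and 1 pair of matches overlapped. CHR matches had their median at position -29 and NF-Y matches at position -84 relative to the start. The genes with a CHR match had a median HRG effect of -0.46 in control cells and the 11 genes without one -0.38, with ranges that overlapped (-0.76 to 0.02 and -0.67 to -0.23). For the NF-Y box the order was the reverse, with -0.45 in the 31 genes with a match and -0.47 in the 7 without one. The stretches below run from 150 bases before the start to 30 bases from it, for 5 genes called 1.5-fold lower in both kinds of control cells and for ANLN, the gene nearest to 0, with TTTGAA and CCAAT of either strand in capitals.
CDC25C: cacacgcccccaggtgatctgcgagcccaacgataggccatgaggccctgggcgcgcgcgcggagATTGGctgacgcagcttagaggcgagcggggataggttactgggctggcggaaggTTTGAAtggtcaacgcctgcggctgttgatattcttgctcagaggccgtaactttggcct
BUB1B: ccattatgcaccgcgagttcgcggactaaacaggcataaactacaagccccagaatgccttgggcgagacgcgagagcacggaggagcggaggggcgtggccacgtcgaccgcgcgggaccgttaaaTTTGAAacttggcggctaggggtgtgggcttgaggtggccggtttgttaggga
NDC80: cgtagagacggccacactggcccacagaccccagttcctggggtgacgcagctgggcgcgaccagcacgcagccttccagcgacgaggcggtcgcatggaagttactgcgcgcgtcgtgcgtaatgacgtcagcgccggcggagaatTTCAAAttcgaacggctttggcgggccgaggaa
SPC25: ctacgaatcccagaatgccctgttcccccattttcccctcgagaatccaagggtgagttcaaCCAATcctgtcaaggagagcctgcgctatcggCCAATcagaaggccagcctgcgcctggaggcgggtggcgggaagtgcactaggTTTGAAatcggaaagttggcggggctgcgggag
KIF20A: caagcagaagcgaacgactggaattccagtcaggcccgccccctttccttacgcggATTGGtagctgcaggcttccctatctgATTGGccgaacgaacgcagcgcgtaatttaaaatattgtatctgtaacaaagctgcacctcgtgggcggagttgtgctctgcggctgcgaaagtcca
ANLN: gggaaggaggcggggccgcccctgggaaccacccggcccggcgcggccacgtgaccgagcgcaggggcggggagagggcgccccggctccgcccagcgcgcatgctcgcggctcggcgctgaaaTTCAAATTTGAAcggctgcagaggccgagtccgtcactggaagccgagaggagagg
CDC25C (chr5:138331775-138331954, minus strand) had both elements in 2 of its 4 windows, and the stretch is from the window with the CHR match at position -30. SPC25 (chr2:168890401-168890580, minus strand) had 2 NF-Y boxes upstream of a CHR match at position -3 in the stretch shown. NDC80 (chr18:2571407-2571586, plus strand) and BUB1B (chr15:40160919-40161098, plus strand) had a CHR match and no NF-Y box, and KIF20A (chr5:138178962-138179141, plus strand) had 2 NF-Y boxes and no CHR match. ANLN (chr7:36389712-36389891, plus strand) carried 2 adjacent CHR matches, 1 on each strand, and no NF-Y box. A match is a description of the letters and not of a bound site.

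**Figure D3:**
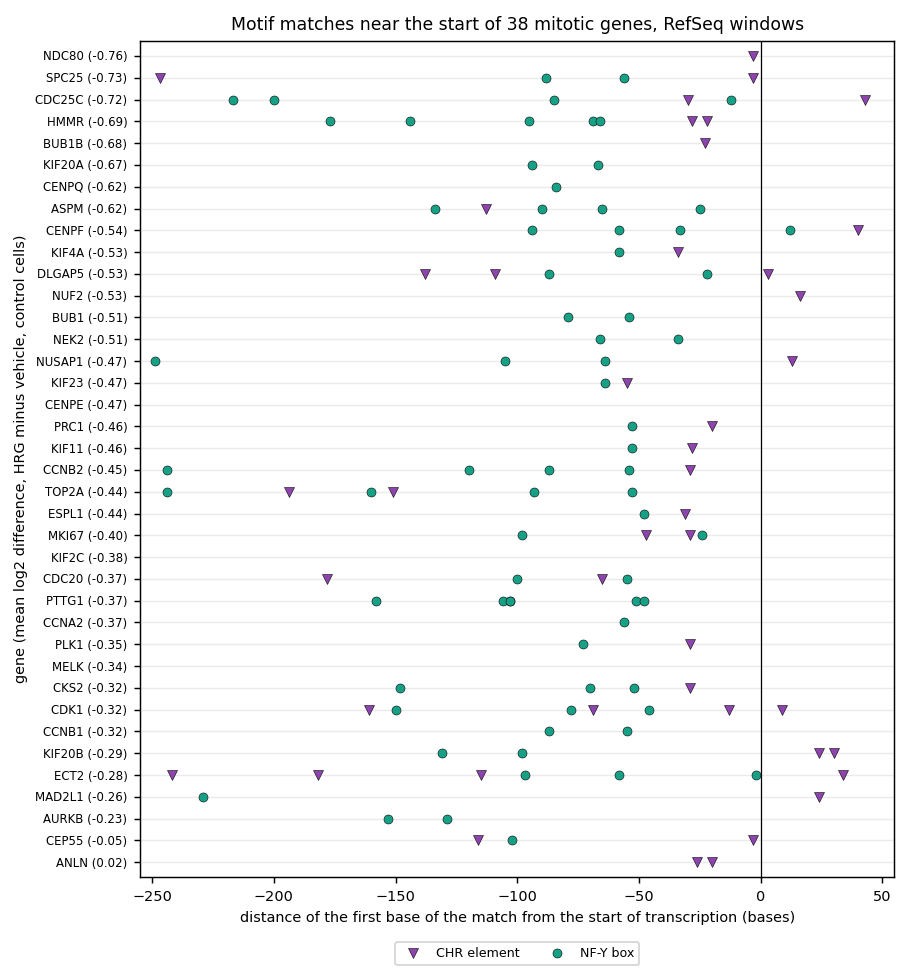
Position of each match to the CHR (triangles) and the NF-Y box (circles) relative to the start of transcription (x axis, in bases, 0 at the start) in the windows of 38 mitotic genes, ordered by their mean HRG effect in control cells (given beside each name, log2), with the largest decrease on top. Matches of genes with several windows are drawn relative to each start, and both kinds occur from the top to the bottom of the order. CHR matches lie between -247 and 43 (median -29) and NF-Y matches between -249 and 12 (median -84).

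The second comparison asked whether P-Rex1 depletion changed the response. Many of the genes also fell with HRG in depleted cells, with smaller differences. The median difference was -0.20 with duplex #1 and -0.28 with duplex #2, and no gene passed the adjusted p and 1.5-fold together, where 1.15% and 0.656% of all probe sets did. At the adjusted p alone, 20 of 46 genes fell with #1 and 29 with #2, against 12.4% and 7.64% of all probe sets, and none rose, against 14.9% and 8.2%. These counts moved when 1 array was left out. With #1 the count was 8 without its HRG replicate 3, 11 without vehicle replicate 1 and 12 without vehicle replicate 3. With #2 it was 11 without its HRG replicate 3, 14 without vehicle replicate 1 and 17 without vehicle replicate 2. Without the 4 arrays that stood apart, 26 genes fell with #1 and 18 with #2. The 6 HRG arrays of depleted cells lay below their 6 vehicle arrays for 18 of 46 genes, against 6.21% of all probe sets.

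**Figure D4:**
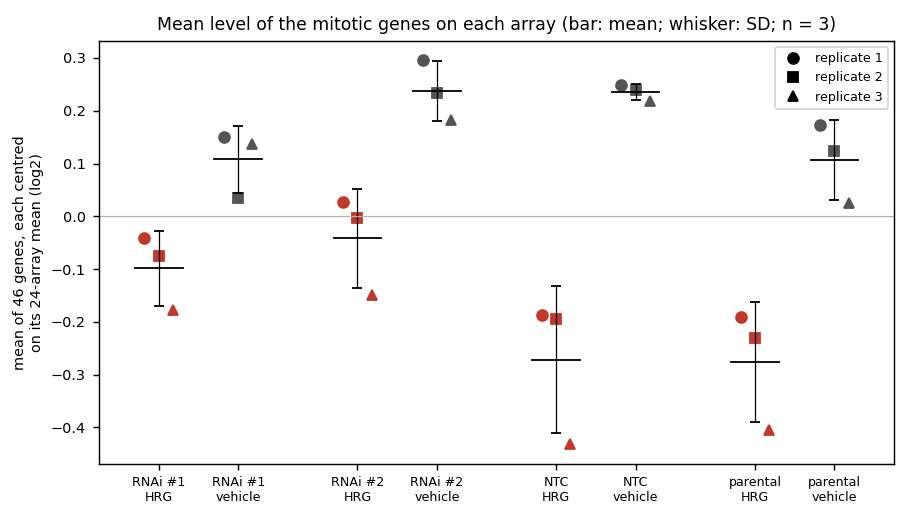
Mean log2 level of the 46 mitotic genes on each of the 24 arrays, each gene centred on its own mean over the arrays (y axis), for the 8 groups (x axis) with HRG in red and vehicle in grey, bars for group means and whiskers for the SD (n = 3). The HRG arrays lie between -0.18 and 0.03 in P-Rex1 RNAi cells and between -0.43 and -0.19 in control cells, while the vehicle arrays of both lie between 0.02 and 0.30.

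On the mean of the 46 genes, each centred over the 24 arrays, P-Rex1 RNAi #1 cells had -0.10 ± 0.07 with HRG, against 0.11 ± 0.06 with vehicle, and P-Rex1 RNAi #2 cells had -0.04 ± 0.09, against 0.24 ± 0.06 (SD, n = 3 arrays). NTC cells had -0.27 ± 0.14 with HRG, against 0.24 ± 0.02 with vehicle, and parental cells -0.28 ± 0.11, against 0.11 ± 0.08 (SD, n = 3 arrays). The array of HRG replicate 3 had the lowest value in each of the 4 HRG groups. Averaged over the kinds of cells, the median gene was 1.18-fold lower with HRG in depleted cells and 1.37-fold lower in control cells. The mean HRG effect was less negative in depleted cells for 45 of 46 genes, which are not independent of each other. No share of all probe sets is set beside this count. CEP55, counted among the 45, hardly differed (-0.0448 in depleted and -0.0452 in control cells). ANLN, the exception, did not decrease in control cells (0.02, against -0.07 in depleted cells).

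The difference between the effects was tested for each gene as an interaction. With both duplexes against both kinds of control cells, 13 of 46 genes had a weaker decrease in depleted cells (adjusted p under 0.05, limma), against 3.8% of all probe sets with a difference in this direction, and none had a stronger decrease. The median difference of effects was 0.22. Over all probe sets it was 0.00, a value that pools probe sets raised and lowered by HRG. Of all probe sets, HRG lowered 12.4% with #1 and 7.64% with #2, against 17.3% in parental and 17.6% in NTC cells. It raised 14.9% and 8.2%, against 13.5% and 13.6%. Genes of DNA replication and S-phase entry were called in this direction as well, with counts given below. Whether the weaker decrease is particular to the mitotic genes was not tested. The largest differences of effects were those of 2 kinetochore genes and CDC25C. CENPQ, a subunit of the inner kinetochore, had log2 levels of 7.57, 7.38 and 7.45 with HRG, against 7.55, 7.42 and 7.60 with vehicle, in P-Rex1 RNAi #1 cells and 7.52, 7.24 and 7.09, against 7.63, 7.51 and 7.57, in P-Rex1 RNAi #2 cells. In NTC cells CENPQ had 7.18, 7.13 and 6.82 with HRG, against 7.70, 7.87 and 7.79 with vehicle, and in parental cells 7.20, 6.96 and 6.86, against 7.60, 7.54 and 7.41. The vehicle arrays of depleted cells overlapped with those of parental cells and lay below those of NTC cells. The HRG arrays of #1 lay above those of control cells, while those of #2 overlapped with them. The difference of effects was 0.45 (standard error 0.10, adjusted p = 0.0123).

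SPC25 had 7.99, 8.07 and 7.93 with HRG, against 8.33, 7.95 and 8.26 with vehicle, with duplex #1 and 8.06, 8.05 and 7.66, against 8.33, 8.38 and 8.21, with duplex #2. The treatments overlapped with #1 and not with #2, and the difference from the effect in control cells was 0.45 (adjusted p = 0.0104). CDC25C had 7.59, 7.53 and 7.46 with HRG, against 7.81, 7.82 and 7.94 with vehicle, with #1 and 7.65, 7.78 and 7.60, against 8.06, 8.05 and 7.92, with #2. It still fell in both, 1.26-fold each, and the difference of effects was 0.39 (standard error 0.10, adjusted p = 0.0217). That call was lost with NTC cells alone as the control (0.41, adjusted p = 0.061). FOXM1 had 9.46, 9.38 and 9.46 with HRG, against 9.82, 9.64 and 9.86 with vehicle, with #1 and 9.35, 9.25 and 9.33, against 9.76, 9.57 and 9.70, with #2. Its difference of 0.28 (adjusted p = 0.0151) did not pass without the 4 arrays that stood apart (0.24, adjusted p = 0.059).

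The other genes called were CCNB2, PTTG1, ESPL1, CENPF, KIF2C, KIF4A, PRC1, RACGAP1 and BIRC5. KIF4A and PRC1, a kinesin and the microtubule bundler it works with at the spindle midzone, had differences of 0.38 and 0.22 (adjusted p = 0.00849 and 0.00392). RACGAP1, a GTPase-activating protein of centralspindlin, had 0.22 (adjusted p = 0.00763). BIRC5 had 0.25 (adjusted p = 0.0121) at its brighter probe set and 0.12 (adjusted p = 0.159) as the mean of its probe sets. NDC80 and BUB1B, among the genes lowered most by HRG, had differences of 0.25 each that did not pass (adjusted p = 0.255 and 0.121). NDC80 had 8.21, 8.20 and 7.92 with HRG, against 8.63, 8.41 and 8.61 with vehicle, with #1 and 8.41, 8.42 and 8.17, against 9.17, 8.86 and 8.67, with #2, without overlap within either duplex.

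**Figure D5:**
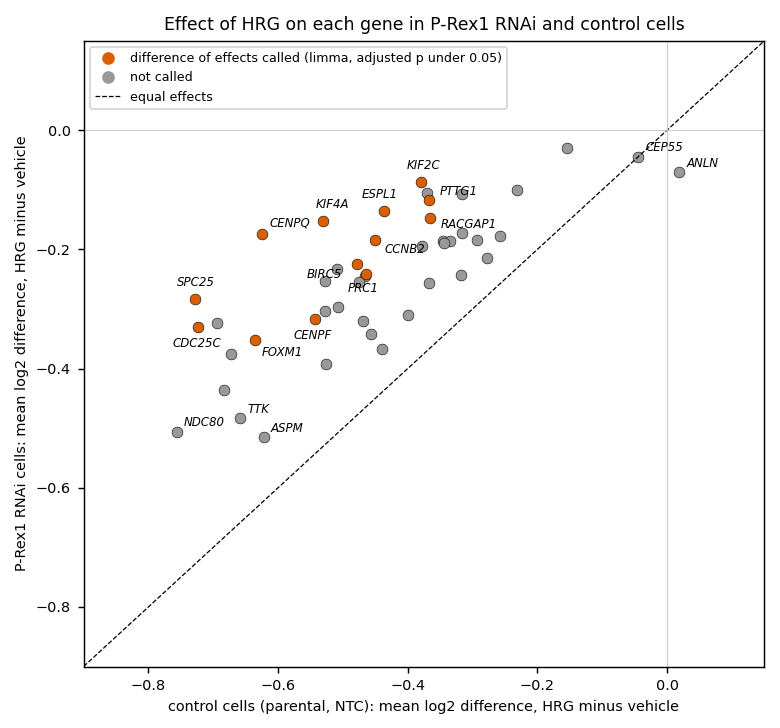
Mean log2 difference between HRG and vehicle in P-Rex1 RNAi cells (y axis) and in control cells (x axis) for each of 46 mitotic genes, with orange points for the 13 genes whose difference of effects was called. All points but that of ANLN lie on or above the dashed line of equal effects, and the median gene stands at -0.24 in P-Rex1 RNAi cells and -0.45 in control cells.

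The separate duplexes carried fewer calls. With #1 alone, 3 genes had a weaker decrease (CENPQ, SPC25 and KIF4A, against 0.718% of all probe sets), and with #2 alone 2 genes did (PRC1 and RACGAP1, against 2.1%). The medians over the 46 genes were 0.23 with #1 and 0.17 with #2. Without the 4 arrays that stood apart they were 0.18 and 0.19. The 2 kinds of control cells were also set against each other. The HRG effect was more negative in NTC than in parental cells for 37 of 46 genes (median difference -0.13), with no gene called. These genes are not independent of each other, and without the 4 arrays that stood apart the median difference was -0.01. With each array left out in turn, the count of genes with a weaker decrease lay between 0 and 7 with #1. It was 0 without P-Rex1 RNAi #1 vehicle 2, HRG 2 or HRG 3, and 7 without NTC HRG 2. With #2 it lay between 1 and 5, with 1 gene called without any of parental vehicle 1 or 2, parental HRG 3, NTC vehicle 1 or 3, NTC HRG 3, P-Rex1 RNAi #2 vehicle 1, 2 or 3 or P-Rex1 RNAi #2 HRG 1, and 5 without NTC HRG 2. No mitotic gene differed between the effects with #2 and with #1 at the adjusted p, where 0.0665% of all probe sets did, and 1 of 46 had an unadjusted p under 0.05. Without the 4 arrays that stood apart, 9 genes were called over both duplexes, and 7 of them were among the 13. With NTC cells alone as the control, 8 genes were called. Parental cells alone were not tried as the control.

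The third comparison set depleted against control cells at each treatment, and its HRG arrays are among those of the comparisons above. With HRG, 25 of 46 genes were higher in P-Rex1 RNAi than in control cells, against 8.55% of all probe sets, with a median difference of 0.19. With #1 alone 9 genes were higher (3.39% of all probe sets) and with #2 alone 23 (8.33%). The highest were KIF4A (0.38), KIF2C (0.37), CDC25C (0.37), SPC25 and CENPQ (0.35 each). For 8 genes, PBK, ESPL1, CENPF, KIF2C, KIF4A, TPX2, PRC1 and RACGAP1, the 6 HRG arrays of depleted cells were all above the 6 of control cells, against 3.05% of all probe sets. Without HRG no mitotic gene passed in P-Rex1 RNAi against control cells, where 1.73% of all probe sets did, and the differences lay between -0.14 and 0.09 with 1 of 46 genes at an unadjusted p under 0.05 (limma). Against the mean of both kinds of control cells, 36 of 46 genes were lower with #1 (median -0.06, lowest -0.27). With #2, 40 of 46 were higher (median 0.06, highest 0.25). No gene was called with either duplex, and 2 and 6 genes had an unadjusted p under 0.05 (limma). The genes are not independent of each other, and no share of all probe sets is set beside these counts. With NTC cells alone as the control the medians were -0.12 with #1 and 0.003 with #2. NTC against parental cells without HRG gave no call either (0.0095% of all probe sets), with 9 of 46 genes at an unadjusted p under 0.05 and a median difference of 0.13.

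Other genes of the same machinery were read from lists of the G2/M program and its regulators. Of 50 further G2/M genes, 28 fell in parental and 36 in NTC cells, none rose, and the medians were -0.25 and -0.41. The condensin subunits NCAPD2 and NCAPH, which compact mitotic chromosomes, fell by -1.04 and -0.96 in parental cells and by -0.98 and -1.11 in NTC cells, lower values than those of any of the 46 measured genes. OIP5 and CENPK, of the centromere, fell by -0.90 and -0.70 in parental and by -1.08 and -0.96 in NTC cells. Among 29 genes that act in replication and in entry into S phase (G1/S genes), 23 fell in parental and 25 in NTC cells and 1 rose in each, with medians of -0.36 and -0.50. In the interaction 15 of these 29 genes were called weaker in depleted cells, as were 7 of the 50 further G2/M genes. This compares with 13 of the 46 mitotic genes and 3.8% of all probe sets. The CHR was found in 26 of 41 further G2/M genes with a window and in 1 of 26 G1/S genes, and the NF-Y box in 27 and 17 of them. Of 19 genes of the DREAM, MuvB, E2F and B-Myb regulators, 9 fell and 3 rose in parental cells and 9 fell and 2 rose in NTC cells. E2F1 fell by -0.70 and -0.61, the pocket protein RBL2 by -0.58 and -0.72 and the DNA-binding MuvB subunit LIN54 by -0.51 and -0.72.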

How the data were processed

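RNA from 24 T-47D cultures was hybridised to Affymetrix Human Gene 1.0 ST arrays, 1 array per culture. The deposited values are log2 expression values per probe set, which the authors made with RMA in R/Bioconductor (simpleaffy), that is, background adjustment, quantile normalization over the arrays and probe set summarization. No version of the package was stated. RMA compresses differences of dim probe sets, and equal array distributions hide a change shared by all genes.

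Of 28536 probe sets, 19292 were annotated with 1 symbol, 1750 with several and 7494 with none, and the 21042 with a symbol were tested. A gene was read from its brightest probe set with that symbol alone. A model with 1 mean per group was fitted to all 24 arrays (limma 3.58.1 in R 4.3.3, 16 residual degrees of freedom, eBayes). Contrasts gave the HRG effect in each kind of cells, RNAi against control at each treatment and the interactions, with Benjamini-Hochberg adjustment over all tested probe sets. Calls required an adjusted p under 0.05 and, where stated, a fold over 1.5. The study's threshold for HRG, an unadjusted p under 0.005 with 1.5-fold, was an alternative. The fitting code was tested on simulated data with known changes.

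The mitotic genes and the lists of other genes were chosen with earlier results of these data known. Values on every array were given for genes called 1.5-fold in both kinds of control cells, then, up to 12 genes, for those with the largest and smallest mean HRG effect of each role, and for those with the 3 largest interactions. ANLN and CEP55 were added after their values were seen. Other lists are represented by up to 4 genes with the largest effects. The alternatives were the replicate number as a block, all probe sets, removal of the dimmest 25% of probe sets, a variance trend, array weights, the mean of a gene's probe sets, the compared groups alone, NTC cells alone as control, and each array left out. An alternative without 4 arrays that stood apart was chosen after seeing the data. The number of arrays limits the precision.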

Additional observations from a re-analysis of the deposited data

Results flagged for a closer look

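The response to HRG differed between P-Rex1 RNAi and control cells for 13 mitotic genes, by the interaction test over both duplexes (limma, adjusted p under 0.05). The differences of effects on the log2 scale were 0.45 for CENPQ, 0.45 for SPC25, 0.39 for CDC25C, 0.38 for KIF4A, 0.30 for ESPL1, 0.29 for KIF2C, 0.28 for FOXM1, 0.27 for CCNB2, 0.25 for PTTG1, 0.25 for BIRC5, 0.23 for CENPF, 0.22 for PRC1 and 0.22 for RACGAP1, each positive because the decrease was smaller in P-Rex1 RNAi cells. With duplex #1 alone the difference passed for CENPQ (0.57), SPC25 (0.54) and KIF4A (0.50). With duplex #2 alone it passed for PRC1 (0.25) and RACGAP1 (0.21). Of the 13 genes, 9 were called whichever of the 24 arrays was left out, 8 with NTC cells alone as control and 7 without the 4 arrays that stood apart. The effects of the 2 duplexes were not called different for any mitotic gene, which does not show that they are equal.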

How the results depend on the processing

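The decrease with HRG at the adjusted p kept its count within 1.5 times under each alternative in control cells, between 31 and 44 genes in parental and between 39 and 42 in NTC cells. Groups shared replicate numbers. Of the 12 pairs of same-numbered HRG and vehicle samples, 10 had deviations from their group means that correlated over 0.1 and best with their own number, a hint from the data that numbers may mark a shared factor. No label states one and 2 pairs did not reach 0.1 (r between -0.05 and 0.39 over all), so the replicate block stayed an alternative. With the replicate block 20 genes had a weaker decrease over both duplexes (all 13 among them), 13 with #1 and 6 with #2, and BUB1B (adjusted p = 0.0368) and HMMR (0.0169) passed over both duplexes, as did CENPE for HRG in parental cells (0.0322, limma). With NTC cells alone as control 8 genes did over both duplexes and 1 with #2. Without the 4 arrays that stood apart, 10 genes fell 1.5-fold in NTC cells, 18 fell with #2, and the weaker decrease was called for 1 gene with #1 and 5 with #2. With #1 the count was 5 without the dimmest probe sets, 6 with a variance trend and 12 with array weights, and with #2 it was 4 with the trend and 4 with array weights. At an unadjusted p under 0.005 and 1.5-fold, 0 genes had a weaker decrease over both duplexes, with #1 or with #2, and 0 were higher in P-Rex1 RNAi than control cells with HRG, since no such difference reached 1.5-fold. With array weights 1 gene changed in P-Rex1 RNAi against control cells and 1 in NTC against parental cells without HRG.

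With single arrays left out, the counts lay between 1 and 9 (parental) and between 10 and 20 (NTC) at 1.5-fold, between 0 and 1 with #1 and between 0 and 2 with #2. At the adjusted p they lay between 31 and 40 (parental), 40 and 42 (NTC), 8 and 22 (#1) and 11 and 32 (#2). The weaker decrease was called for 9 to 17 genes over both duplexes, 0 to 7 with #1 and 1 to 5 with #2, and 19 to 30 genes were higher in P-Rex1 RNAi cells with HRG. The sign of ANLN in parental cells turned to -0.0192 without the 4 arrays (-0.0192 to 0.135 with single arrays left out), and in NTC cells to 0.00965 with array weights and 0.0535 without the 4 arrays (-0.073 to 0.0535). CEP55 in parental cells lay between -0.00228 and 0.0444 with single arrays left out. The causes of these shifts were not tested. The Rank Products method was not run.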

Other observations

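The brakes on CDK1 and the p53 arm moved in both directions with HRG. Of 10 genes measured, 3 fell and 3 rose in parental cells, and 3 fell and 4 rose in NTC cells. SFN (14-3-3 sigma), which holds cyclin B and CDK1 in the cytoplasm, rose by 0.65 in parental and 0.84 in NTC cells on the log2 scale. GADD45A, a stress gene that inhibits CDK1, rose by 0.51 and 0.35, and CDKN1A (p21), the CDK inhibitor, by 0.31 and 0.50. CHEK2, the checkpoint kinase, had -0.98 and -1.26, and its decrease was weaker in P-Rex1 RNAi cells (difference of effects 0.56, adjusted p = 0.00545, limma). The differences of effects for SFN, GADD45A and CDKN1A did not pass (adjusted p = 0.118, 0.081 and 0.53).

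Of 17 subunits and regulators of the anaphase-promoting complex, 7 fell and 1 rose in parental and in NTC cells alike in number, and none reached a 1.5-fold decrease. ANAPC16 had -0.39 in parental and -0.45 in NTC cells, and CDC23 had -0.30 and -0.39.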
